A study of Homo sapiens with 20 samples.

Results

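The 10 genes described here encode cohesin and the proteins that load it, release it or stop it on DNA: STAG1, STAG2, RAD21, SMC1A, SMC3, NIPBL, MAU2, WAPL, PDS5A and CTCF. They were chosen by name, as 10 of 19970 protein-coding genes on chromosomes 1 to 22 and X, and each was taken on hg38 (GENCODE 44) with 50 kb on either side. RAD21, SA1 and SA2, the targets of the ChIP, were located at the genes that encode the complex. SA1 is the product of STAG1 and SA2 the product of STAG2.

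The study precipitated RAD21, SA1 and SA2 from chromatin of CHM13 and RPE-1 cells and sequenced the recovered DNA together with total chromatin input, in 20 libraries. CHM13 is a line from a complete hydatidiform mole (3 replicates per subunit) and RPE-1 a line from retinal pigment epithelium (2 replicates per subunit). Both are immortalised with hTERT. There was 1 reference list of peaks per cell line and subunit, and these 6 lists were compared. For RAD21 the antibody differed between the cell lines, whereas SA1 and SA2 were each precipitated with 1 antibody in both, and in CHM13 cells a small amount of Drosophila chromatin was added to the ChIP.

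Cohesin is a ring of SMC1A, SMC3 and RAD21 to which either SA1 or SA2 is bound. NIPBL and MAU2 load the ring and drive its extrusion of DNA loops, WAPL and PDS5A take part in its release, and CTCF, bound to an oriented motif, halts it and so sets many of the sites where cohesin is found by ChIP. Cohesin holds sister chromatids together from replication to anaphase, and in interphase it shapes loops around genes.

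The lists hold start and end of each peak and no height, fold enrichment or p-value. They pool the replicates, so no spread between replicates can be given and no difference was tested. Every interval below is a 95% interval of counting error and of nothing else. On chromosomes 1 to 22 and X of hg38, 73739 RAD21, 38153 SA1 and 44374 SA2 peaks of CHM13 stood against 14939, 10707 and 6389 of RPE-1. Median widths were 724, 613 and 608 bp against 443, 397 and 360 bp. Cell line, number of replicates, list length and, for RAD21, the antibody cannot be told apart in any comparison of CHM13 with RPE-1 cells. The same holds for the sonicator, which differed, for the Drosophila chromatin, and for sequencing depth, which the paper reports as mostly higher in CHM13. A listed peak needed 2 replicates, out of 3 in CHM13 and out of 2 in RPE-1.

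Peaks of the 6 lists that overlapped were joined into loci. The windows of the 10 genes held 56 loci out of 77076 on these chromosomes, and 7 of the 56 were present in all 6 lists. To show what such a site looks like, 300 bases of hg38 (plus strand, 5′ to 3′) around the centre of 2 of them are printed. They are the ones nearest to a gene's start whose bases overlap no annotated exon. Capitals mark a match to the 12-letter core of the CTCF motif, searched on both strands with at most 1 mismatch. The SMC3 site, 20.4 kb before the start, holds 1 match with no mismatch, on the minus strand. The CTCF site, 41.1 kb before the start and inside the neighbouring gene RIPOR1, holds none.
SMC3 upstream, chr10:110547159-110547458: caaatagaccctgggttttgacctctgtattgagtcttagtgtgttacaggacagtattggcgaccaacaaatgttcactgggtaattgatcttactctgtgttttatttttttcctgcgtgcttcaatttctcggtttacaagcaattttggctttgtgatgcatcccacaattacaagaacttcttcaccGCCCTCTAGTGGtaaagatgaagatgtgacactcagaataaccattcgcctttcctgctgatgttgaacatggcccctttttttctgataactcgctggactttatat
CTCF upstream, chr16:67521228-67521527: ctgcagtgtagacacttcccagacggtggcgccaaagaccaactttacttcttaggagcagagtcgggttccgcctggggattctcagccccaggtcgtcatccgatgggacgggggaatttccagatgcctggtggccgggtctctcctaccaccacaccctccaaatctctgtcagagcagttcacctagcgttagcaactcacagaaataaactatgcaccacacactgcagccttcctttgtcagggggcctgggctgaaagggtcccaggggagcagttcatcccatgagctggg

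At 21 of the 56 loci the central 300 bases held the core motif, which is 37.5% (Wilson interval 26.0 to 50.6%) beside 25.9% of all 77076 loci, and at 8 of these the match had no mismatch. The whole-genome value lies just below that interval, which treats loci of 1 window as independent. The 7 exact matches outside the RAD21 gene are shown as 30 bases each, read on the strand of the match with the 12 matching bases in capitals, because they show the sequence shared by sites that differ in the lists they appear in. This set was chosen after the values were seen.
STAG1 start, chr3:136752340-136752369, minus strand: tggaaaatgCCACCAGATGGCgggttagga
STAG2 gene record, first site, chrX:124211506-124211535, plus strand: ttagtatctCCACCAGAGGGCagacagtaa
STAG2 gene record, second site, chrX:124388752-124388781, plus strand: tttgaatgaCCACCAGATGGCagtgtgggg
SMC1A downstream, chrX:53331197-53331226, minus strand: ttattattaCCACTAGAGGGCaatactctc
SMC3 upstream, chr10:110547342-110547371, minus strand: tcatctttaCCACTAGAGGGCggtgaagaa
MAU2 downstream, chr19:19367017-19367046, plus strand: tggccttggCCACCAGGGGGCatggtggcc
CTCF upstream, chr16:67547137-67547166, plus strand: agcttctgcCCACCAGGGGGCagcagatcc

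The first of these lies at the start of STAG1 and, with the SMC3 upstream site, belongs to a locus present in all 6 lists. The MAU2 and CTCF sites were present in 4 lists, the STAG2 sites, inside its gene record but past its canonical transcript, in 3 and the SMC1A site in 2. An exact core was therefore found at loci with 2 to 6 lists. Over the 21 loci with a match, the median distance of the match from the locus centre was 21 bp and the largest 74 bp. The match ran along the gene at 13 loci and against it at 8.

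By class of locus, the core was present at 3 of 7 loci of all 6 lists, which is 42.9% (interval 15.8 to 75.0%) beside 63.8% of the 4765 such loci on these chromosomes. Where the 3 CHM13 lists and no RPE-1 list were present it was found at 8 of 17 loci (47.1%, interval 26.2 to 69.0%), beside 30.3%. At loci with RAD21 of CHM13 alone it was found at 2 of 15 (13.3%, interval 3.74 to 37.9%), beside 10.2%. Within each of these 3 classes the interval contains the value of all such loci, so no difference was detectable at this number of loci. Over all 56 loci the share lay above that of the genome, but the make-up of the loci differs as well. All 3 CHM13 lists were present at 60.7% of the 56, beside 41.2% of all loci. Loci of that kind held the core at 45.4% on these chromosomes. Whether the make-up accounts for the higher share was not tested.

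At the transcript start, peaks were listed for 6 of the 10 genes. These were STAG1, STAG2, PDS5A and CTCF in all 3 CHM13 lists and NIPBL and WAPL in RAD21 of CHM13 alone, while RAD21, SMC1A, SMC3 and MAU2 had no peak there in any list. The start was the 1 kb on either side of the start of the Ensembl canonical transcript. In CHM13, 6 genes had a RAD21 peak there, beside 33.9% of all protein-coding genes, 4 had an SA1 peak, beside 17.8%, and 4 had an SA2 peak, beside 14.3%. In RPE-1, STAG1 alone had such a peak, in each list, beside 5.99% of genes for RAD21, 1.77% for SA1 and 1.36% for SA2. With the shares found in protein-coding genes within 25% of each gene's length, 10 genes would give 4.12, 2.08 and 1.90 with a start peak in CHM13 and 0.699, 0.218 and 0.167 in RPE-1. The counts lay above these values in each list, but by few genes, and no difference was tested. The lists do not count separately here. The RPE-1 counts are all STAG1, and the SA1 and SA2 counts of CHM13 are the same 4 genes.

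**Figure D1:**
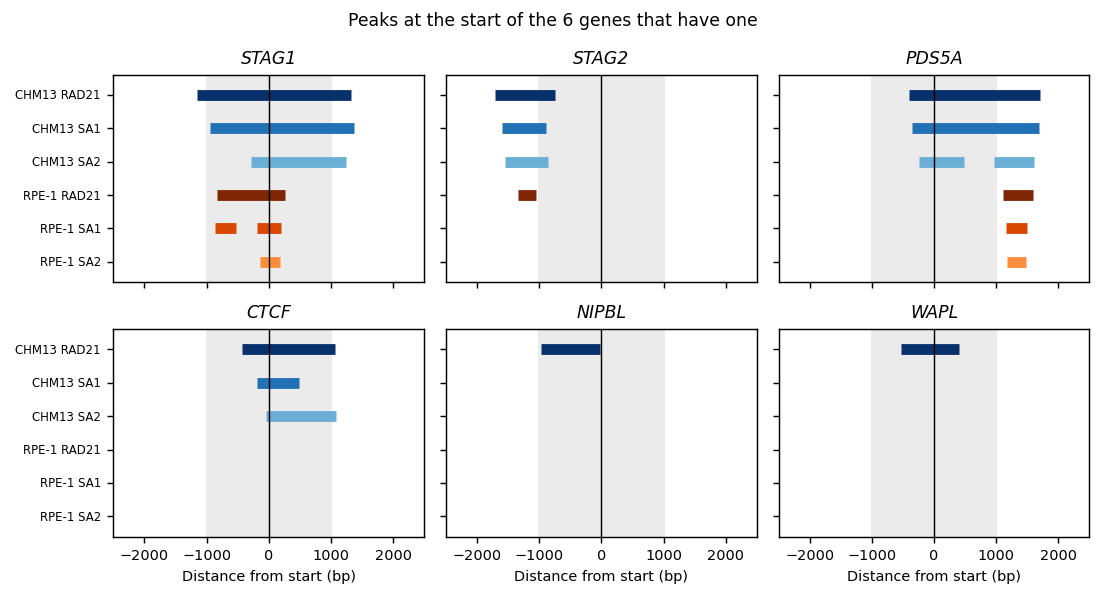
Peaks near the start of STAG1, STAG2, PDS5A, CTCF, NIPBL and WAPL, with the distance from the start in bp on the horizontal axis (positive along the gene) and 1 row per list. Bars span the listed peaks, the grey band is the 1 kb on either side, and the RPE-1 peaks of PDS5A sit just past it, at about 1.3 kb.

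At the 3-prime end no gene had a peak in any list. In all protein-coding genes the shares were 10.8, 6.20 and 5.97% for RAD21, SA1 and SA2 of CHM13 and 3.38, 1.62 and 1.22% for RPE-1. From genes of similar length, 0.976 of the 10 would be found for RAD21 of CHM13 and from 0.103 to 0.542 for the other lists, which is less than 1 gene. In the body, from 1 kb after the start to 1 kb before the end, 8 genes had a RAD21 peak, 7 an SA1 peak and 8 an SA2 peak in CHM13, beside 44.1, 33.3 and 34.7% of all genes. In RPE-1, the counts were 1, 2 and 1, beside 20.1, 15.6 and 10.0%. These genes are long, and at the shares of genes of similar length the body counts would be 6.86, 5.67 and 5.87 in CHM13 and 3.51, 3.01 and 1.89 in RPE-1. Length was matched on the gene record, whereas the body is that of the canonical transcript. For STAG2 these are 462 and 141 kb. The counts were above that in CHM13 and below it in RPE-1, in each case by few genes, and no difference was tested. A peak reaching from the start region into the body counted in both. The RAD21 and SA2 body peaks of CTCF and the SA1 and SA2 body peaks of PDS5A in CHM13 were such peaks. All RPE-1 body peaks of PDS5A belonged to the locus at its start. With peaks placed by their centre, the CHM13 body counts were 7, 6 and 7.

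**Figure D2:**
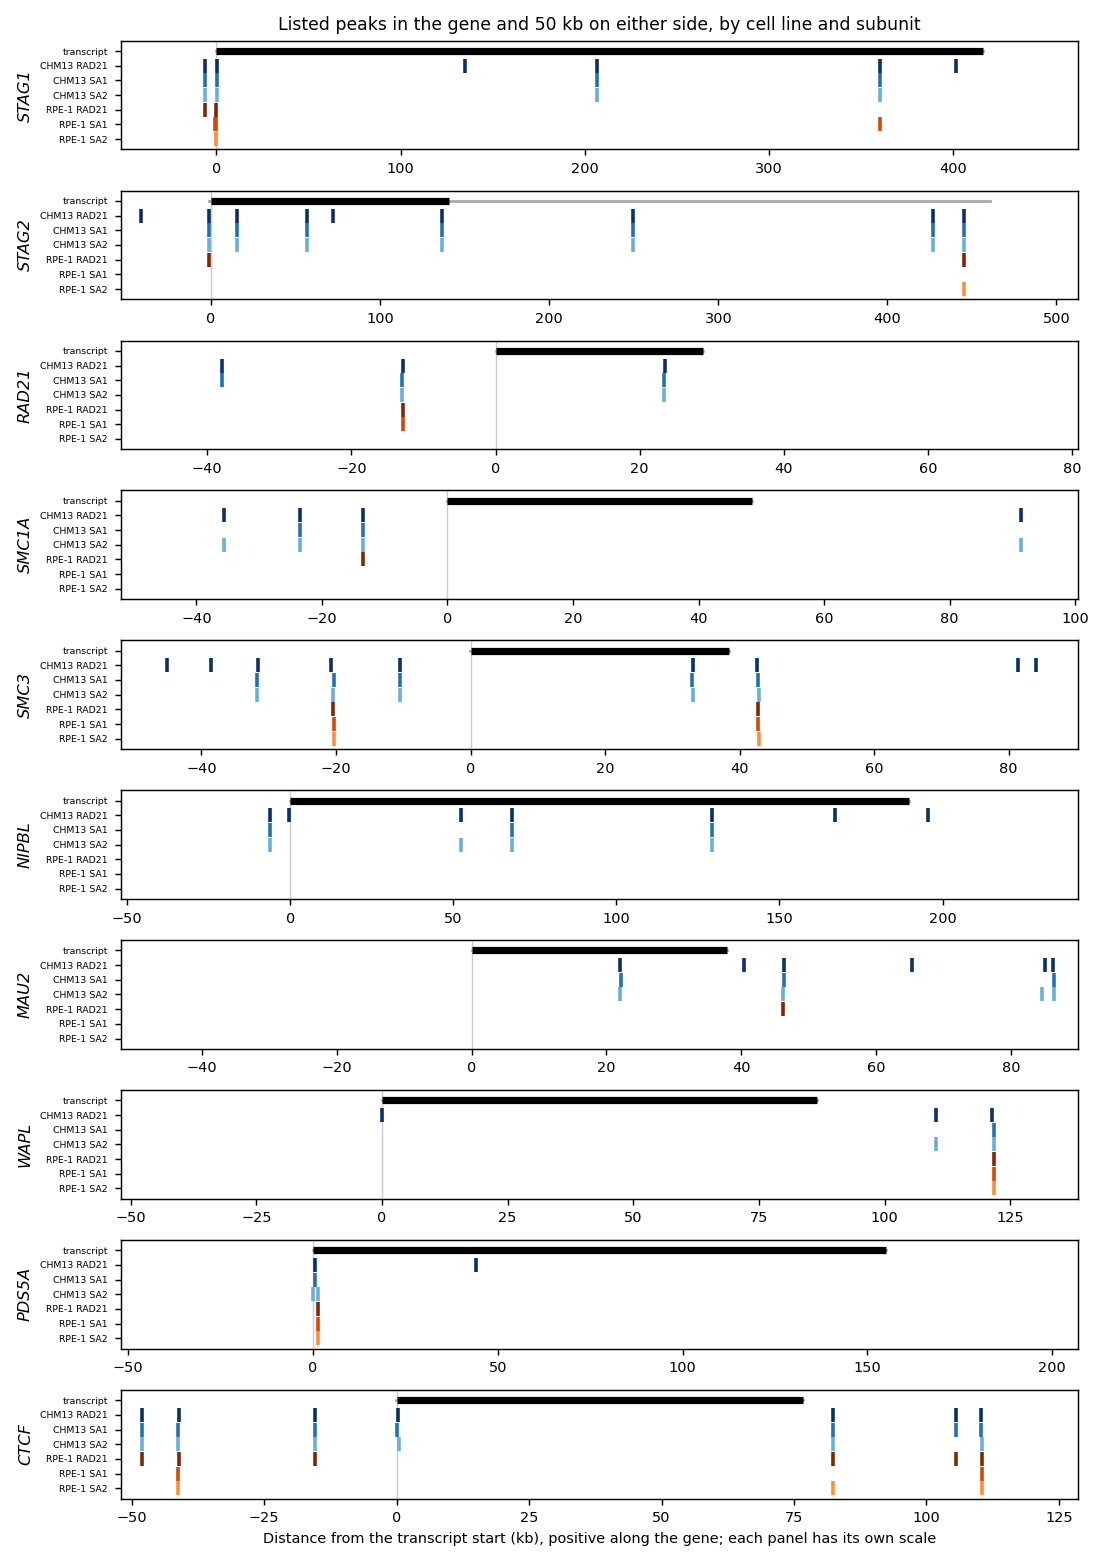
Every listed peak in the 10 windows, with the distance from the transcript start in kb on the horizontal axis (a scale of its own in each panel) and 1 row of ticks per list. The black bar is the canonical transcript and the grey line the rest of the gene record. RPE-1 ticks stand below CHM13 ticks throughout, SMC1A has none within the gene, and NIPBL has none from RPE-1.

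Among the ring subunits, SMC1A (X, 53374149 to 53422728, minus strand), which pairs with SMC3 through the hinge, had no peak of any list within the gene. Of 2686 protein-coding genes of similar length, 26.1% had none either. Its window held 4 peaks of RAD21, 2 of SA1 and 4 of SA2 in CHM13 and 1 of RAD21 in RPE-1. The loci lay 13.5, 23.5 and 35.7 kb before the start and 91.4 kb past it. The nearest had all 3 CHM13 lists and RAD21 of RPE-1, and held the core with 1 mismatch.

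SMC3 (10, 110567684 to 110606048, plus strand) completes the ring. Its start and end had no peak, yet its window had the highest density of RAD21 peaks of CHM13 among the 10, 65 per Mb. It held 9 RAD21, 5 SA1 and 5 SA2 peaks in CHM13 and 2 of each in RPE-1. Genes of similar length had median counts of 4, 2 and 2 in CHM13, and SMC3 ranked at the 91.5, 91.5 and 89.7 percentile. Only 1 locus, in intron 22, lay within the gene, so these ranks come from the flanks. Both flanks were occupied in every list, with 1 locus of all 6 lists 20.4 kb before the start and another 4.45 kb past the transcript end. The upstream RAD21, SA1 and SA2 peaks were 1528, 753 and 843 bp wide in CHM13 and 579, 462 and 374 bp wide in RPE-1. Leaving out RAD21 of CHM13, the centres of the other 5 peaks lay within 85 bp of each other upstream and within 44 bp downstream.

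RAD21 (8, 116845934 to 116874776, minus strand) is the kleisin that closes the ring and the part cut by separase at anaphase. The window held 3 RAD21, 3 SA1 and 2 SA2 peaks in CHM13 and 1 RAD21 and 1 SA1 peak in RPE-1. The nearest locus to the start was 12.9 kb upstream and was present in 5 lists, all but SA2 of RPE-1. A locus of the 3 CHM13 lists lay in intron 11, and 1 with RAD21 and SA1 of CHM13 lay 38.0 kb upstream.

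Of the SA genes, STAG1 (3, 136336236 to 136752403, minus strand) encodes SA1. Its start was the only one of the 10 with peaks of all 6 lists within 1 kb, a feature of 1.01% of protein-coding genes. The locus at the start of PDS5A was also present in all 6 lists, with its RPE-1 peaks just past 1 kb. The RAD21, SA1 and SA2 peaks of CHM13 there were 2469, 2325 and 1528 bp wide, at the 98.4, 99.5 and 98.0 percentile of their lists. In RPE-1, RAD21 covered 1096 bp (99.7 percentile), SA1 had 2 separate peaks of 383 and 339 bp centred 3 bp after and 700 bp before the start, and SA2 had 1 peak of 332 bp centred 20 bp after it. The RAD21 and SA2 peaks of RPE-1 and the nearer SA1 peak overlie the exact core printed above, which lies in the first exon, and STAG1-DT, a divergent transcript, starts within 1 kb. The rest of STAG1, 416 kb long, held 4 loci in introns 3, 5, 22 and 28, of which the one in intron 22 was also in SA1 of RPE-1. Within the gene there were 5, 3 and 3 peaks of CHM13, where genes of similar length had medians of 9, 4 and 5.

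STAG2 (X, 123960212 to 124422664, plus strand) encodes SA2, and its gene record of 462 kb runs far past the canonical transcript of 141 kb. Its start locus, with all 3 CHM13 lists and RAD21 of RPE-1, was centred 1219 bp before the canonical start. The RefSeq promoter of STAG2 begins further upstream than the canonical transcript and contains part of these 4 peaks. The CHM13 peaks there were 979, 715 and 682 bp wide and the RPE-1 RAD21 peak 294 bp. Between the start and the end of the canonical transcript were 4 loci, in introns 1, 1, 5 and 34, of which 3 had all 3 CHM13 lists. Another 3 loci, all with the 3 CHM13 lists and the core motif, lay in the part of the record beyond that transcript, 2 of them inside TENM1. The farthest, 445 kb past the start, was also in RAD21 and SA2 of RPE-1. No SA1 peak of RPE-1 was listed in the STAG2 window, whose genes of similar length had a median of 2.

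Of the loader, NIPBL (5, 36876769 to 37066413, plus strand), the larger subunit, had no peak of any RPE-1 list in its window of 290 kb. Among 1208 genes of similar length 15.3% had none. In CHM13 the window held 7 RAD21, 3 SA1 and 4 SA2 peaks, close to the medians of 8, 4 and 4. The start had a RAD21 peak of 942 bp alone, centred 496 bp upstream, and a locus of all 3 CHM13 lists stood 6.15 kb upstream. Introns 1 and 16 each held a locus of the 3 CHM13 lists with the core motif, at 68.0 and 129 kb. MAU2 (19, 19320829 to 19358754, plus strand), the partner of NIPBL, had no peak in the 50 kb before its start or at the start. The 6 loci began with intron 9, at 22.1 kb, and the other 5 lay past the gene, 3 of them inside GATAD2A and 2 of these within 1 kb of a start of that gene. RAD21 of RPE-1 was listed once, at the MAU2 downstream site printed above.

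WAPL and PDS5A act together in releasing cohesin from chromatin, and PDS5A also takes part in holding it there. WAPL (10, 86435256 to 86521792, minus strand) had a RAD21 peak of 933 bp in CHM13 centred 70 bp before the start and no other peak within the gene, where genes of similar length had medians of 2 RAD21, 1 SA1 and 1 SA2 peaks. All 6 lists met at 1 locus 35.3 kb past the transcript end, within 1 kb of the start of the gene ENSG00000287475, and the 3 RPE-1 centres there lay within 28 bp. PDS5A (4, 39822863 to 39977956, minus strand) had the fewest peaks of the 10 windows in RAD21 of CHM13, 2, where genes of similar length had a median of 7 (10.1 percentile). The first covered the start and part of intron 1 over 2106 bp (97.3 percentile of widths), and SA1 covered 2041 bp there (99.2 percentile). SA2 of CHM13 had separate peaks centred 124 and 1289 bp after the start. The 3 RPE-1 peaks, 481, 340 and 302 bp wide, lay at 1346, 1326 and 1333 bp, at the inner of these and not at the start itself. The next locus in PDS5A was 44.1 kb into the gene, in RAD21 of CHM13 alone, and the rest of the 155-kb gene had none.

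CTCF (16, 67562467 to 67639177, plus strand), the factor that halts cohesin, had the window with the most RPE-1 peaks. There were 7 RAD21, 7 SA1 and 6 SA2 peaks in CHM13 and 6, 2 and 3 in RPE-1. Genes of similar length had medians of 5, 3 and 3 and of 1, 1 and 0. CTCF ranked at the 99.3 percentile for RAD21 and the 98.6 percentile for SA2 of RPE-1, and at the 96.5 percentile for SA1 of CHM13. All RPE-1 peaks were outside the gene, at 3 loci before it and 3 past it. The window has 7 protein-coding neighbours. Against 232 genes that were similar in length and also had a number of such neighbours within 2 of that, chosen after the data were seen, the RPE-1 RAD21 rank was 98.7 and the median count 2. Of the 6 RPE-1 loci, 1 lay within 1 kb of the start of CARMIL2 and 1 within 1 kb of those of ENKD1 and C16orf86. The start of CTCF itself had RAD21, SA1 and SA2 peaks of CHM13 of 1495, 682 and 1128 bp, centred 324, 144 and 526 bp after the start. No other locus lay within the gene.

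**Figure D3:**
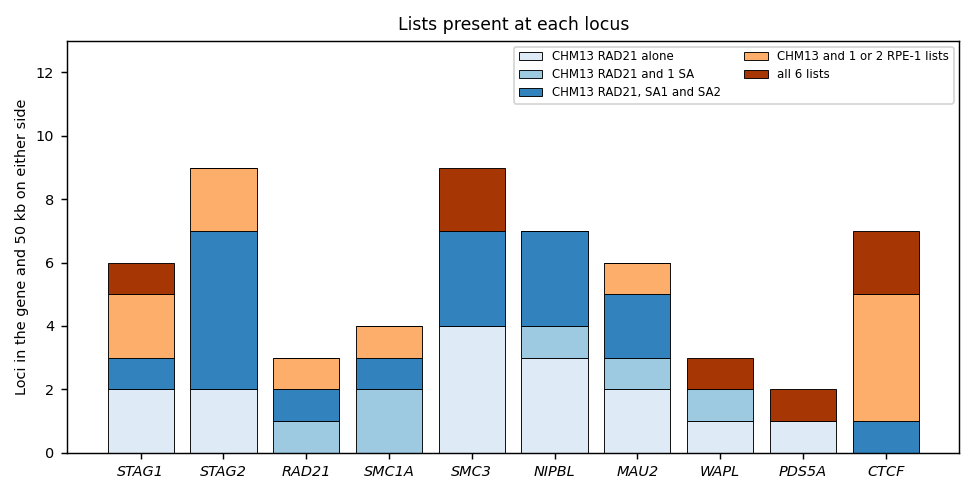
Number of loci in each gene's window (vertical axis), stacked by the lists present at each locus. STAG2 has the most loci of all 3 CHM13 lists without RPE-1, CTCF has an RPE-1 list at 6 of 7, and NIPBL at 0 of 7.

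Summed over the 10 windows, 2.54 Mb in all, there were 56 RAD21, 36 SA1 and 40 SA2 peaks in CHM13 and 17, 10 and 9 in RPE-1. The exact Poisson interval of the RAD21 count in CHM13 was 42.3 to 72.7. Per Mb this is 22 for RAD21, 14.2 for SA1 and 15.7 for SA2, beside 24.3, 12.6 and 14.6 over the chromosomes as a whole. In RPE-1 it is 6.69, 3.94 and 3.54, beside 4.93, 3.53 and 2.11. The count intervals for the RPE-1 lists ran from 9.90 to 27.2, from 4.80 to 18.4 and from 4.12 to 17.1.

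Each of the 56 loci had RAD21 of CHM13, beside 95.6% of all loci. RAD21 of CHM13 stood alone at 15 (26.8%, Wilson interval 17 to 39.6%), beside 35.7%. All 3 CHM13 lists were present at 34 (60.7%, interval 47.6 to 72.4%), beside 41.2%, and all 6 lists at 7 (12.5%, interval 6.19 to 23.6%), beside 6.18%. The value 41.2% lies below its interval, and 6.18% lies practically at the lower limit of its own, 6.19%. The intervals treat loci as independent although loci of 1 gene share a window. The comparison is with all loci, not with loci in the windows of other genes. RAD21 with SA2 and no SA1 was found at 5 loci of CHM13 (8.93%, interval 3.87 to 19.3%), beside 13.5%, and RAD21 with SA1 and no SA2 at 2 (3.57%, interval 0.985 to 12.1%), beside 4.79%. At the 7 loci with all 6 lists the RAD21 peak of CHM13 had a median width of 1528 bp, against 467 bp at the 15 where it stood alone. Joined loci grow with the width of their peaks, so width and the number of lists share part of their source.

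CHM13 had more peaks in the windows than RPE-1 for each subunit, and the RPE-1 peaks lay at CHM13 sites. All 17 RAD21, 10 SA1 and 9 SA2 peaks of RPE-1 overlapped a CHM13 peak of the same subunit, beside 97.1, 97.5 and 98.5% of the whole lists. The Wilson intervals of these shares begin at 81.6, 72.2 and 70.1%. CHM13 had 3.29 times as many RAD21 peaks in the windows (conditional exact interval 1.89 to 6.05), where the whole lists gave 4.94. For SA1 the ratio was 3.60 (1.75 to 8.13), beside 3.56, and for SA2 4.44 (2.12 to 10.4), beside 6.95. The whole-list SA2 ratio depends on the genome build: the SA2 list of RPE-1 held 6416 peaks on hg38 and 9579 on CHM13 v1.0 (67%), and on CHM13 v1.0 the ratio of the whole lists was 4.57. Each interval contains the ratio of the whole lists, so the excess in CHM13 was not distinguishable from that of the lists. Each CHM13 list had a peak in all 10 windows, beside 93.8, 89.6 and 89.4% of the windows of all protein-coding genes for RAD21, SA1 and SA2. In RPE-1, 9 windows had a RAD21 peak, beside 71.7%, and 6 each had an SA1 and an SA2 peak, beside 57.3 and 44%. At the shares of genes of similar length, 7.51, 6.65 and 4.91 windows would have one in RPE-1.

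Within the genes alone, the 10 held 24 RAD21, 17 SA1 and 19 SA2 peaks in CHM13 and 4, 3 and 3 in RPE-1. The mean over genes of similar length would give 45.6, 21.2 and 25.6 in CHM13 and 7.37, 5.63 and 3.07 in RPE-1. Ranked among genes of similar length, the median percentile for RAD21 of CHM13 was 39.5, with a range of 14.7 at SMC1A to 56.0 at RAD21. For SA1 and SA2 of CHM13 the medians were 46.2 and 51.4. For RAD21 of CHM13 the mean over genes of similar length lay above their median for each member, as with 12.1 beside 9 for STAG1. No member held more RAD21 peaks of CHM13 than that median. By rank these genes lay near or somewhat under the middle. What lies behind the lower sums was not tested.

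**Figure D4:**
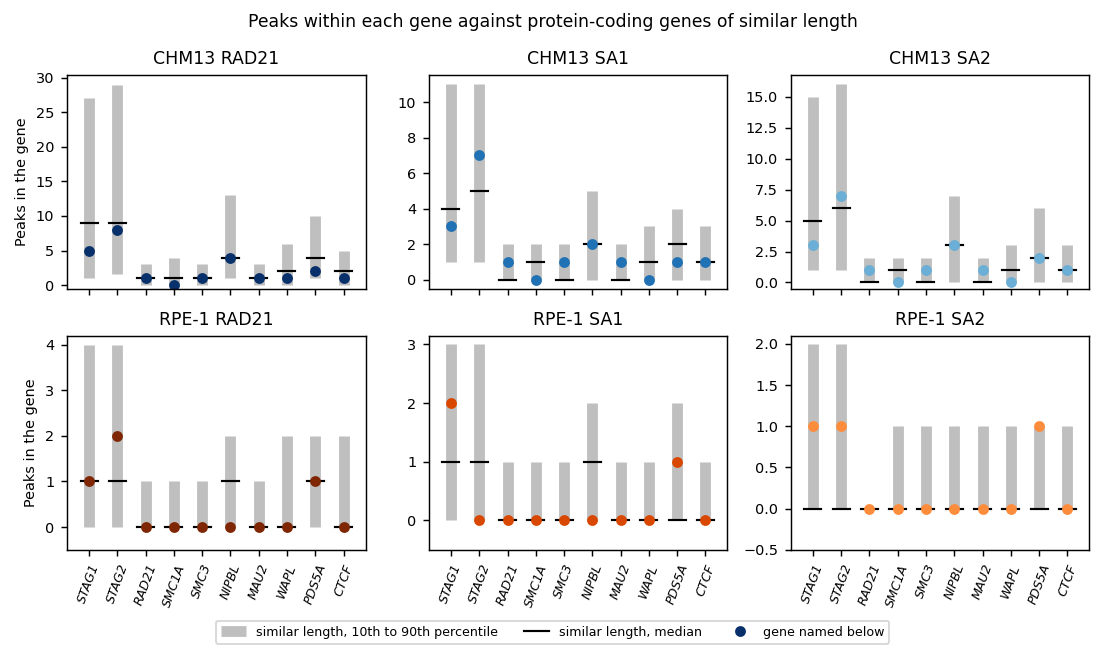
Peaks within each gene (points, vertical axis) for the 6 lists, with the median (black line) and the 10th to 90th percentile (grey bar) of protein-coding genes within 25% of the same length. SMC1A stands at 0 in each list, and STAG2 has 7 SA1 peaks in CHM13 against a median of 5.

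In 9 of the 10 genes a RefSeq promoter (250 bases before to 50 after the start, hg38) could be read. G and C made up 56.0% of that of SMC3 and 76.3% of that of WAPL, the lowest and highest of the 9. The core motif with at most 1 mismatch was found in the promoters of STAG1 and CTCF, beside 4.94% of 35116 RefSeq promoters. The STAG1 promoter overlapped a peak of each list and the CTCF promoter one of each CHM13 list, while the promoters of SMC1A, SMC3 and MAU2 overlapped none.

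Another 12 genes of the cohesin pathway were counted in the same way: PDS5B, ESCO1, ESCO2, CDCA5, HDAC8, SGO1, ESPL1, PTTG1, SMC1B, STAG3, REC8 and RAD21L1. A start peak was listed for 3, 2 and 3 of the 12 in RAD21, SA1 and SA2 of CHM13, beside 33.9, 17.8 and 14.3% of all protein-coding genes. In RPE-1 the counts were 0, 0 and 1, beside 5.99, 1.77 and 1.36%. None of the 12 had a start peak in all 6 lists, beside 1.01% of all protein-coding genes. PDS5B, the second PDS5 protein, had one in the 3 CHM13 lists and in SA2 of RPE-1. ESPL1 (separase) and RAD21L1 (a meiotic kleisin) had one in RAD21 and SA2 of CHM13, and CDCA5 (sororin, which protects cohesin from WAPL) in SA1 of CHM13. The acetyltransferases ESCO1 and ESCO2, the SMC3 deacetylase HDAC8, the protector SGO1, the separase inhibitor PTTG1 (securin) and the meiotic subunits SMC1B, STAG3 and REC8 had no start peak in any list. Their windows held 1 (SGO1) to 5 (STAG3) RAD21 peaks in CHM13, and together the 12 windows held 57, 40 and 36 peaks in CHM13 and 21, 7 and 6 in RPE-1.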

How the data were processed

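Per the methods, the authors mapped reads (bwa mem, samtools), called peaks of single replicates (macs, q threshold 0.01), merged these with GenomicRanges and kept loci found in at least 2 replicates. The submitters' processing notes name bcl2fastq 2.20 and hg38, and the methods describe alignment to CHM13 v1.0 only. The deposited values used here are peak start and end positions in bp, in 6 lists on hg38. The paper's reporting summary also names averaged coverage tracks, which were not used. Of the 6 lists on CHM13 v1.0, only the number of peaks was used, and 0 columns of per-sample values were left out. Depth is not in the lists and scaled no value.

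A peak counted in a region where it overlapped by at least 1 bp. Similar length meant a gene record within 25%. The motif core allows 2 letters at 4 positions. Python 3.11.15, numpy 2.4.6, scipy 1.17.1 and matplotlib 3.10.9 were used, and counting was tested on simulated data. The members and lists were chosen with earlier results of these data known. All 10 members were named, and of loci those at a start or in all 6 lists were named, with others where a gene's peaks were described. Alternatives changed start definitions, windows, flanks, overlap rules, peak widths, joining, length tolerance and motif settings.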

Additional observations from a re-analysis of the deposited data

How the results depend on the processing

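Under 20 alternatives, 56 results were recomputed, and 1094 of 1120 values stayed within their counting interval or within 1.5 times. Each alternative can change only some of the 56 results, and values that it cannot change are counted among the 1094. That number is therefore no measure of how robust the results are. With 2 kb around the start, the RPE-1 lists of RAD21, SA1 and SA2 gave 3, 2 and 2 genes with a start peak, and the counts were the same 3, 2 and 2 with the start of any transcript. The CHM13 lists gave 8, 6 and 6 with the start of any transcript. They gave 5, 3 and 3 with 500 bp around the start, and also with peaks placed by their centre. Shares of genes of similar length are not given for these settings. With the start of the gene record RAD21 of RPE-1 gave 2. With peaks of at most 2 kb only, RAD21, SA1 and SA2 of CHM13 gave 4, 2 and 4 starts. The shared share of RPE-1 SA1 peaks was 70% at that setting. The wide RAD21 and SA1 peaks of CHM13 at STAG1 and PDS5A drop out there. With 25 kb flanks, 4 loci had all 3 RPE-1 lists, 4 had both cell lines, and 75% of the loci in all 6 lists held the motif. With 100 kb flanks the windows held 85 RAD21 peaks in CHM13 and 29 in RPE-1. With the gene record alone they held 24, 17 and 19 peaks in CHM13 and 4, 3 and 3 in RPE-1, with 17 loci of 3 subunits in CHM13, 2 in RPE-1 and 2 in both. Both changes of flank, and the gene record alone, change the sequence counted. No paired analysis was possible because the lists pool the replicates, and for the same reason no replicate could be left out. The list sizes limit precision, and a peak under the threshold of the authors' caller is not listed.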

Other observations

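The SA2 list of RPE-1 cells, the shortest of the 6, held 6416 peaks on hg38, 67% of its 9579 on CHM13 v1.0. The other 5 lists held 93.3 to 104% of their number on that build. An absent SA2 peak in RPE-1 cells, as in the windows of RAD21, SMC1A, NIPBL and MAU2, was read from that list alone.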
